A study of Mus musculus with 2 samples.

Results

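The annexin family was described from RNA-seq of primary mouse hepatocytes, with 1 library from oil-injected mice and 1 library from CCl4-injected mice. The 10 genes Anxa1, Anxa2, Anxa3, Anxa4, Anxa5, Anxa6, Anxa7, Anxa8, Anxa11 and Anxa13 were taken by name, through the RefSeq identifiers of the mRNA table. All 10 were among the 20725 mRNA genes of that table, and all 10 had a value in both libraries. Hepatocytes turn the solvent CCl4 into radicals that damage them, and repeated dosing leads to liver fibrosis. The mice were wild-type C57BL/6J males, and the methods give an age of 5 weeks when they were obtained. The CCl4 mice received a 20% CCl4 solution in mineral oil at 2.5 ml CCl4 per kilogram by intraperitoneal injection, 2 times per week, and the control mice received oil by the same route. The labels give 8 weeks of injection, whereas the methods give 4 weeks. Hepatocytes were isolated by enzymatic perfusion and density gradient centrifugation, and the number of mice behind each library was not given in the sources used here. With 1 library per condition, no difference had a replicate check, and no p-value was computed.

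Annexins are cytosolic proteins that bind phospholipid membranes when calcium rises. They share a core of repeated calcium-binding domains and differ in their N-terminal tails, which carry the binding sites for partners such as S100 proteins. Members of the family take part in membrane repair, vesicle traffic, blood clotting and the resolution of inflammation. In the liver, several annexins are known to be more abundant in bile duct, endothelial, stellate and immune cells than in hepatocytes.

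The level of each gene was the authors' RPKM, the reads of a transcript divided by its length and by the library size, so that levels could be compared between genes. Values under 1 RPKM are listed as 0, and a gene listed at 0 in either library was given no fold change. The change, on a log2 scale, was that of CCl4 against oil after 0.1 RPKM was added to each level. A gene was called higher when its log2 fold change reached 1 and lower when it reached -1. The only error available was that of counting reads. It was taken from reads recovered from the steps between RPKM values, which gave library totals of 57992591 reads for oil and 64655539 reads for CCl4. The recovered reads of a gene are a lower bound, so the 95% counting intervals below are at least as wide as the full reads would give (exact Poisson for a level, exact Clopper-Pearson for a ratio with nothing added). They do not cover variation between mice or preparations.

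Of the 10 annexins, 4 were called higher in the CCl4 library (Anxa1, Anxa2, Anxa3 and Anxa5), 0 were called lower, and 6 were past neither limit. The call of Anxa5 was lost after scaling to the median mRNA. Among all 10829 genes with a value in both libraries, 14.3% were called higher and 5.5% lower. The median log2 fold change was 0.71 over the 10 annexins and 0.30 over all genes tested. Of the 10 annexins, 9 were above 0, or 7 after both libraries were scaled to the median mRNA. Most of all genes tested were above 0 too, since a log2 fold change of 0.04 stood at percentile 34.5. After that scaling the median of all genes tested was -0.02. The summed level of the family was 161.8 RPKM with oil and 318.9 RPKM with CCl4, a ratio of 1.97. The 4 genes called higher made up 54.4% of the summed annexin level with oil and 73.0% with CCl4. As these 4 were grouped by their change, a larger share with CCl4 follows from the grouping. The other 6 together were at 73.8 and 86.2 RPKM, a ratio of 1.17, below the 1.25 of the median transcript.

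**Figure D1:**
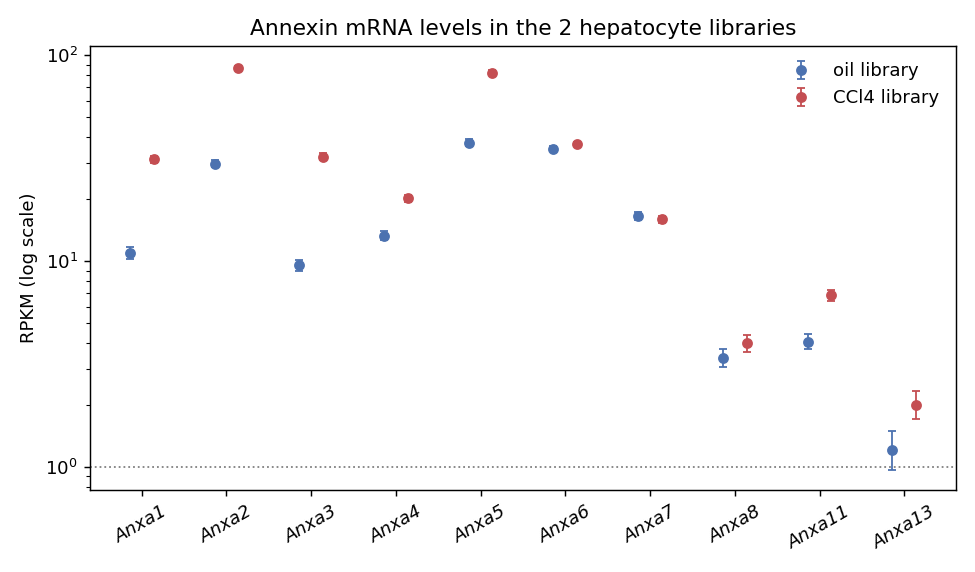
Level of each annexin in RPKM (log axis) in the oil library (blue) and the CCl4 library (red), with 1 library per condition; bars are 95% counting intervals and the dotted line is the listing limit of 1 RPKM. Anxa2 and Anxa5 stood highest in the CCl4 library at 86.8 and 82.4 RPKM, whereas Anxa6 and Anxa7 had nearly the same level in both.

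Anxa2 encodes the annexin that pairs with S100a10 at the cell surface and there binds plasminogen and its activator. It was at 29.8 RPKM in the oil library (counting interval 28.6 to 31.0, at least 2371 reads). In the CCl4 library it was at 86.8 RPKM (84.9 to 88.7, at least 7709 reads). The log2 fold change was 1.54, and the log2 ratio had a counting interval of 1.48 to 1.61. Anxa2 was the third most abundant annexin in the oil library and the most abundant in the CCl4 library.

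Anxa3, an annexin abundant in neutrophils, had the largest log2 fold change of the family, 1.75. It was at 9.53 RPKM with oil (8.92 to 10.2, at least 883 reads) and at 32.3 RPKM with CCl4 (31.2 to 33.4, at least 3331 reads). The interval of its log2 ratio, 1.65 to 1.87, lay above that of every other annexin.

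Anxa1 encodes a protein that is induced by glucocorticoids, restrains phospholipase A2 and acts on formyl peptide receptors to end inflammation. It was at 10.96 RPKM with oil (10.3 to 11.7, at least 887 reads) and at 31.3 RPKM with CCl4 (30.1 to 32.5, at least 2821 reads). Its log2 fold change was 1.504, and the interval of its log2 ratio, 1.403 to 1.62, overlapped that of Anxa2.

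Anxa5 encodes the annexin whose binding to exposed phosphatidylserine is used to stain dying cells. Its level was 37.7 RPKM in the oil library (36.2 to 39.4, at least 2193 reads), where it was the most abundant annexin. In the CCl4 library it was at 82.4 RPKM (80.2 to 84.6, at least 5338 reads), with a log2 fold change of 1.12, or 0.80 after scaling to the median mRNA. The interval of its log2 ratio, 1.05 to 1.20, lay below those of Anxa1, Anxa2 and Anxa3. Among the 10829 genes tested, the log2 fold changes of Anxa3, Anxa2, Anxa1 and Anxa5 stood at percentiles 97.1, 95.3, 94.8 and 88.8.

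**Figure D2:**
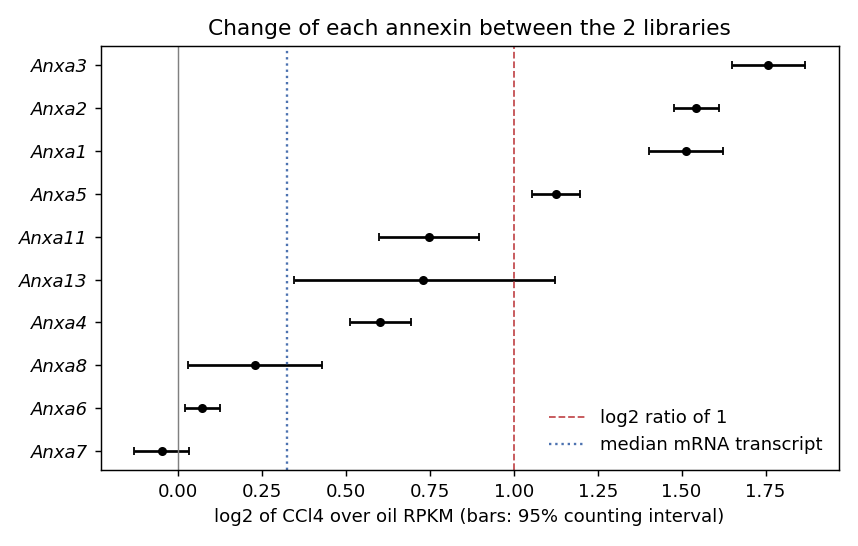
Log2 ratio of CCl4 to oil RPKM for each annexin, with nothing added; bars are 95% counting intervals, the dashed line marks a log2 ratio of 1 and the dotted line the median mRNA transcript at 0.33. The points form an upper group of Anxa3, Anxa2, Anxa1 and Anxa5, and Anxa8, Anxa6 and Anxa7 lie below the dotted line.

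Of the 6 annexins past neither limit, Anxa11, Anxa13 and Anxa4 lay between the median gene and the limit. Anxa11, which tethers RNA granules to lysosomes and binds the calcium sensor Pdcd6, was at 4.06 RPKM with oil and 6.81 RPKM with CCl4, with a log2 fold change of 0.73. Anxa4, an annexin of epithelial cells, was at 13.3 and 20.2 RPKM, with a log2 fold change of 0.60. The counting intervals of the log2 ratio were 0.60 to 0.90 for Anxa11 and 0.51 to 0.69 for Anxa4, both below 1 and above the 0.33 of the median transcript.

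Anxa13, an annexin first known from the intestine, was the least abundant of the 10 genes in both libraries. It was at 1.21 RPKM with oil (0.971 to 1.49, at least 87 reads) and at 2.01 RPKM with CCl4 (1.71 to 2.35, at least 161 reads). Its log2 fold change was 0.69, and the interval of its log2 ratio was 0.35 to 1.12, so that at this depth a ratio on either side of the limit could not be told apart.

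Anxa6, whose protein carries a duplicated annexin core, was the second most abundant annexin in the oil library at 35.3 RPKM (34.3 to 36.2) and was at 37.1 RPKM in the CCl4 library (36.2 to 38.0). The log2 fold change was 0.07, with a counting interval of 0.02 to 0.13 for the log2 ratio. Anxa7, also called synexin, which promotes membrane fusion, was at 16.6 RPKM with oil and 16.0 RPKM with CCl4, a log2 fold change of -0.05. The interval of its log2 ratio, -0.13 to 0.03, spanned 0. Anxa8 was at 3.40 RPKM (3.06 to 3.76) and 3.98 RPKM (3.63 to 4.35). Its log2 fold change was 0.22, and the interval of the log2 ratio was 0.03 to 0.43. The log2 fold changes of Anxa6 and Anxa7 stood at percentiles 36.0 and 30.003 among all genes tested, below the middle.

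The order of levels differed between the libraries. In the oil library it ran Anxa5, Anxa6, Anxa2, Anxa7, Anxa4, Anxa1, Anxa3, Anxa11, Anxa8 and Anxa13, and the counting intervals of neighbors overlapped for Anxa5 and Anxa6 and for Anxa11 and Anxa8. In the CCl4 library it ran Anxa2, Anxa5, Anxa6, Anxa3, Anxa1, Anxa4, Anxa7, Anxa11, Anxa8 and Anxa13, with an overlap for Anxa3 and Anxa1 alone. Anxa6 went from 21.8% to 11.6% of the summed annexin level and Anxa7 from 10.2% to 5.03%, while Anxa2 went from 18.4% to 27.2%. Of the remaining mouse annexins, Anxa9 was at 1.16 and 1.53 RPKM, a log2 fold change of 0.37, and Anxa10 was listed at 0 in both libraries.

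**Figure D3:**
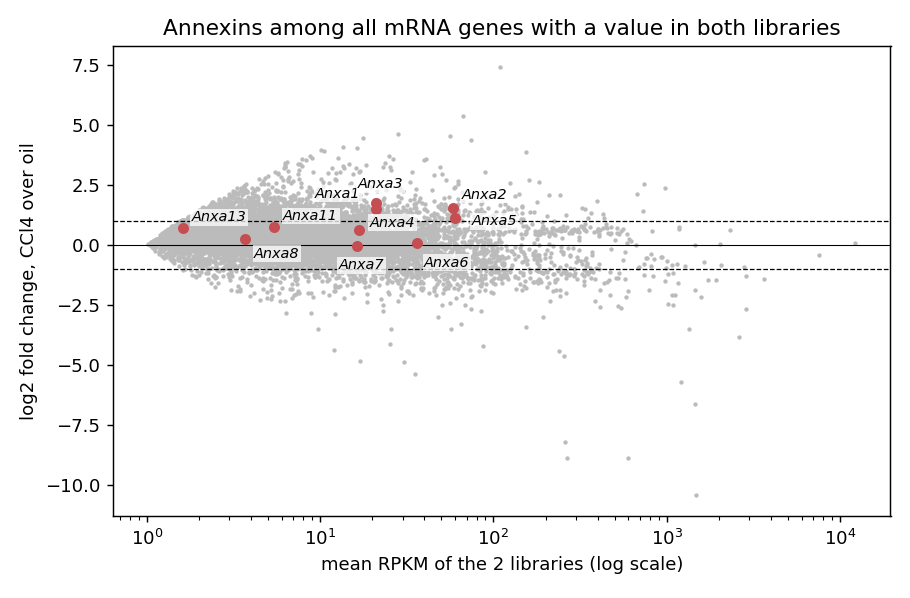
Log2 fold change against the mean RPKM of both libraries (log axis) for 10829 mRNA genes (gray) and the 10 annexins (red); dashed lines mark a log2 fold change of 1 and -1. The 4 annexins above the upper line are spread over mean levels at which genes lie on both sides of 0, and the wedge at low levels comes from the listing limit of 1 RPKM.

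The calls depended on the scaling of the libraries. Over the mRNA transcripts with both values, the median log2 ratio of CCl4 to oil was 0.33. After both libraries were scaled to it, Anxa1, Anxa2 and Anxa3 were still called higher, at 1.18, 1.22 and 1.42, against 7.59% of all genes, whereas Anxa5 was at 0.80 and was no longer called. Under the same scaling Anxa6, Anxa7 and Anxa8 were below 0, at -0.25, -0.37 and -0.09. When the libraries were instead scaled to the summed RPKM of all transcripts but the 10 most abundant, Anxa7 was above 0 at 0.12.

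The promoters of Anxa1, Anxa2 and Anxa5, called higher, are shown beside that of Anxa7, the one annexin below 0, so that the start regions of genes with unlike changes can be compared. Each window runs from 250 bases before to 50 bases after a RefSeq start site (GRCm38.p6, the assembly also called mm10) and is written 5′ to 3′ on the strand of the gene. Capitals mark TATAAA, the core promoter TATA box, TGANTCA, the site bound by AP-1, and GGGCGG, the GC box bound by Sp1, searched on both strands, so that a match may read as its reverse complement. For Anxa7, whose table entry has more than 1 start, the outermost is shown. Anxa3, Anxa6 and Anxa13 are named only.
Anxa1, chr19:20390622-20390921, minus strand: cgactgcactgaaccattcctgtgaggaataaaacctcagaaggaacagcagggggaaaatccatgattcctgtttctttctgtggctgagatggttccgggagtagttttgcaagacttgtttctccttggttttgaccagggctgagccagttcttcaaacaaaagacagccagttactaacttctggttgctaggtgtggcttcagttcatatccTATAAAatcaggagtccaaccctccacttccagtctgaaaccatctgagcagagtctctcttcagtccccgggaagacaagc
Anxa2, chr9:69453433-69453732, plus strand: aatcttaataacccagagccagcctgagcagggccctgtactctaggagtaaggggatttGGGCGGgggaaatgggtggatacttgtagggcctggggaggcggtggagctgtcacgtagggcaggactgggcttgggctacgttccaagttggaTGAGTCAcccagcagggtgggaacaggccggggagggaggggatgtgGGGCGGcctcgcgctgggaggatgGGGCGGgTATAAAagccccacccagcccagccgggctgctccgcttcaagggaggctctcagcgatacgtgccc
Anxa5, chr3:36475838-36476137, minus strand: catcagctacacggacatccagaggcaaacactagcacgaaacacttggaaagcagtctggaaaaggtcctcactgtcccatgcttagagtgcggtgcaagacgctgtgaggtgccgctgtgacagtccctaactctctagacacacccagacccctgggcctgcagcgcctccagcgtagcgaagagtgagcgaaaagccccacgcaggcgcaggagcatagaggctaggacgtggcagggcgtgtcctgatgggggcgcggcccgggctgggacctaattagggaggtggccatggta
Anxa7, chr14:20480084-20480383, minus strand: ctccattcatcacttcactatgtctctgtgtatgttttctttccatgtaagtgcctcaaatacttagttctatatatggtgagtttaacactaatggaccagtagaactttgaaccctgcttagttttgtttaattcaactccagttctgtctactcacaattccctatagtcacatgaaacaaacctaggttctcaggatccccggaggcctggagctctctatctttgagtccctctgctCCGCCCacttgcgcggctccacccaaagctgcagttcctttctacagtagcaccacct

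Of the 9 windows of 7 annexin genes, 2 held TATAAA, those of Anxa1 and Anxa2, where it began 32 and 17 bases before the start site. TATAAA was present in 13.6% of all 32851 windows of this length. TGANTCA was found in 1 annexin window, that of Anxa2, 95 bases before the start, and in 7.81% of all windows. GGGCGG was found in 5 annexin windows, and in 35.7% of all windows. It occurred 3 times in the window of Anxa2 and 3 times in that of Anxa11. For Anxa7 it occurred once in the window shown and 4 times in the window of the other start. These windows overlap, and the match in the window shown is also counted in the other. The window of Anxa5 held none of these letters. A match describes the sequence only.

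The annexin genes lie on separate chromosomes, except for Anxa7, Anxa11 and Anxa8, which are all on chromosome 14 and whose log2 fold changes were -0.05, 0.73 and 0.22. Anxa2 spans chr9:69453683-69491792, Anxa3 chr5:96793385-96845968, Anxa1 chr19:20373434-20390671 and Anxa5 chr3:36448923-36475887. Anxa6 and Anxa7 each had 2 transcripts in the table. The Anxa6 transcripts were at 35.3 and 35.1 RPKM with oil and at 37.1 and 36.9 RPKM with CCl4. At the shortest lengths that gave whole reads they differed by 18 bases, by 5 reads in the oil library and by 8 reads in the CCl4 library. The Anxa7 transcripts were at 16.6 and 15.9 RPKM with oil and at 16.0 and 15.4 RPKM with CCl4. Isoforms that share nearly all their sequence share reads, so no difference between isoforms was read from these values.

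Genes that work with annexins were examined next, from a list of 25 genes of which 22 had a value in both libraries. Of these 22, 8 were called higher and 1 lower, with a median log2 fold change of 0.76, against 14.3% higher and 5.5% lower and a median of 0.30 over all genes tested. The list was chosen with earlier results of these data known, so these counts describe it and do not test it. After scaling to the median mRNA, 4 of the 22 were called higher, against 7.59% of all genes, and 1 lower, against 10.2%. Under that scaling S100a11, Plau, Myof and Mfge8 were still called higher, whereas S100a4, Ahnak, Pla2g4a and Plaur were at 0.86, 0.91, 0.71 and 0.88 and were not. With scaling to the summed RPKM without the 10 most abundant transcripts, 10 partners were called higher, against 19.4% of all genes. S100a6 at 1.16 and Capn1 at 1.01 were among these partners. Plg, at -0.97, was then not called lower, against 4.05% of all genes. Plat was listed at 0 with oil and at 6.89 RPKM with CCl4, and Gca and Trim72 were listed at 0 in both.

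Among the S100 proteins that bind annexin tails, S100a10, the partner of annexin A2, differed from Anxa2 in direction. S100a10 was at 163.3 RPKM with oil and 131.3 RPKM with CCl4, with a log2 fold change of -0.31 and a counting interval of -0.39 to -0.24 for the log2 ratio. Per unit length, S100a10 was thus 5.49 times the level of Anxa2 with oil and 1.51 times with CCl4. S100a11, a partner of annexin A1, was called higher, at 3.87 and 12.5 RPKM with a log2 fold change of 1.67. S100a4 was also called higher, at 16.3 and 37.3 RPKM with a log2 fold change of 1.19. S100a6, at 20.5 and 41.0 RPKM, lay just inside the limit with a log2 fold change of 0.99, and its counting interval of 0.88 to 1.12 spanned it. The scaffold Ahnak, which binds the complex of annexin A2 and S100a10, was at 18.3 and 43.3 RPKM and was called higher at 1.24.

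The plasminogen system, which acts at the annexin A2 receptor, had members called in both directions. Plg, the plasminogen gene, made mainly by hepatocytes, was called lower, at 346.5 RPKM with oil and 157.7 RPKM with CCl4, with a log2 fold change of -1.14. Plau, the urokinase activator, was at 1.61 and 6.75 RPKM with a log2 fold change of 2.001, from at least 73 and at least 341 reads. Plaur, its receptor, was at 3.95 and 9.22 RPKM with a log2 fold change of 1.20. The counting interval of the Plaur log2 ratio, 0.84 to 1.61, spanned the limit of 1.

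Of the genes tied to annexin A1, Pla2g4a, which encodes the cytosolic phospholipase A2 that it restrains, was called higher, at 2.02 and 4.22 RPKM with a log2 fold change of 1.03. The counting interval of the Pla2g4a log2 ratio, 0.88 to 1.26, spanned the limit of 1. The formyl peptide receptor genes Fpr1 and Fpr2 were past neither limit, with log2 fold changes of 0.28 and 0.32. Of the EF-hand partners of annexins A7 and A11, Pdcd6 was at 25.5 and 20.6 RPKM, a log2 fold change of -0.31. Sri, the sorcin gene, was at 9.78 and 15.8 RPKM, a log2 fold change of 0.69. Of 5 tested membrane repair genes, the ferlin Myof was called higher, at 1.93 and 9.53 RPKM with a log2 fold change of 2.25. The related ferlin Dysf was at 5.59 and 6.61 RPKM with 0.24, and the calpain genes Capn1, Capn2 and Capns1 lay at 0.85, 0.76 and 0.55.

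Phosphatidylserine is bound by other proteins besides annexins. Of these, Mfge8, a bridge between dying cells and phagocytes, was called higher, at 10.7 RPKM with oil and 80.6 RPKM with CCl4 with a log2 fold change of 2.90. Gas6, Timd4 and Stab2 were past neither limit, with log2 fold changes of 0.70, 0.38 and 0.76, and Stab2 is also a marker of the endothelial list given below.

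**Figure D4:**
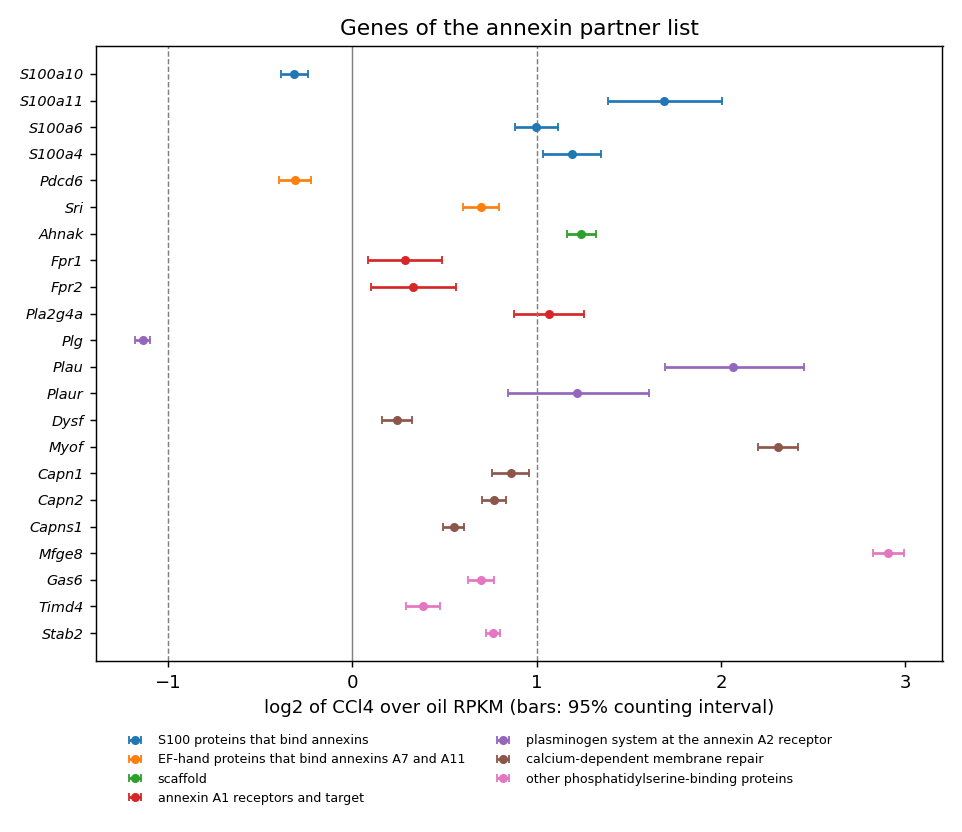
Log2 ratio of CCl4 to oil RPKM, with nothing added, for the 22 genes of the annexin partner list with a value in both libraries, colored by role; bars are 95% counting intervals and dashed lines mark 1 and -1. S100a10, Pdcd6 and Plg lie below 0, and Plg is the single gene left of -1.

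The labelled cell type was checked against its markers. The marker lists were also chosen with earlier results of these data known. All 10 hepatocyte markers had a value in both libraries, with Alb, the albumin gene, at 8656 RPKM with oil and 6476 RPKM with CCl4. Of these 10, 6 were called lower and 0 higher, against 5.5% and 14.3% of all genes tested. The median log2 fold change of these markers was -1.25, and their summed level went from 18805 to 10910 RPKM. In bulk RNA, fewer cells of a type and less RNA per cell cannot be told apart.

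Markers of other liver cells differed between the libraries as well. For comparison with each list below, 14.3% of all genes tested were called higher and 5.5% lower, with a median of 0.30. Of 11 tested stellate cell and myofibroblast markers, all 11 were called higher, with a median of 3.03. Pdgfrb, the other gene of that list, was listed at 0 with oil and at 16.8 RPKM with CCl4. Summed levels are over all genes of a list, those listed at 0 included, and for this list the sum was 85.2 RPKM with oil and 937.2 RPKM with CCl4. Of 9 Kupffer cell and macrophage markers, 7 were called higher, with a median of 1.25 and a summed level of 1103 and 3452 RPKM. Of that sum Lyz2 was 321.0 and 1645 RPKM. The defining Kupffer cell gene Clec4f, at 282.6 and 254.5 RPKM, and Vsig4, at 65.6 and 97.6 RPKM, were past neither limit. Cd68 was not matched. Of 8 sinusoidal endothelial markers, 2 were called higher, with a median of 0.74 and a summed level of 531.1 and 915.8 RPKM.

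Of 4 tested cholangiocyte markers, Krt19 and Spp1 were called higher, with a list median of 0.82, and Sox9 and Cftr were listed at 0 in both libraries. Their summed level was 50.9 RPKM with oil and 170.2 RPKM with CCl4, of which Spp1 was 37.4 and 145.1 RPKM, and the rest of the list summed to 13.4 and 25.1 RPKM. Of 5 tested mesothelial markers, 0 were called higher, and Krt8, which hepatocytes also express, was called lower. The other 4, Msln, Upk3b, Lrrn4 and Gpm6a, had log2 fold changes of 0.47, 0.87, 0.94 and 0.28, the list median was 0.47, and Wt1 was listed at 0 with oil and at 3.16 RPKM with CCl4. The summed level of that list was 205.6 and 122.7 RPKM, and without Krt8 it was 34.1 and 55.2 RPKM. Of 5 tested neutrophil markers, Retnlg was called higher, at 17.0 and 48.7 RPKM, and Elane was called lower, at 2.74 and 1.04 RPKM. S100a8, S100a9 and Csf3r had log2 fold changes of -0.81, -0.83 and 0.72, Mpo was listed at 0 in the CCl4 library and Ly6g was not matched. The summed neutrophil level was 304.1 and 212.6 RPKM, and without S100a8 and S100a9 it was 26.6 and 55.9 RPKM. Of 3 tested T, B and NK cell markers 1 was higher, with summed levels of 11.2 and 15.6 RPKM and Cd3e and Cd8a at 0 in both libraries. The part of any of these cells in the annexin values was not tested.

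After scaling to the median mRNA, Timp1, Lyve1, Fcgr2b, Adgre1, Cd5l, Csf1r and Krt19 were no longer called higher, which left 10 of 11 stellate cell, 0 of 8 endothelial, 4 of 9 macrophage and 1 of 4 cholangiocyte markers called. Under the same scaling 8 of the 10 hepatocyte markers and 3 of the 5 neutrophil markers were called lower. Of all genes tested, 7.59% were then called higher and 10.2% lower. With scaling to the summed RPKM without the 10 most abundant transcripts, Stab1, Upk3b and Lrrn4 were also called higher. The share of all genes called higher then went from 14.3% to 19.4%.

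**Figure D5:**
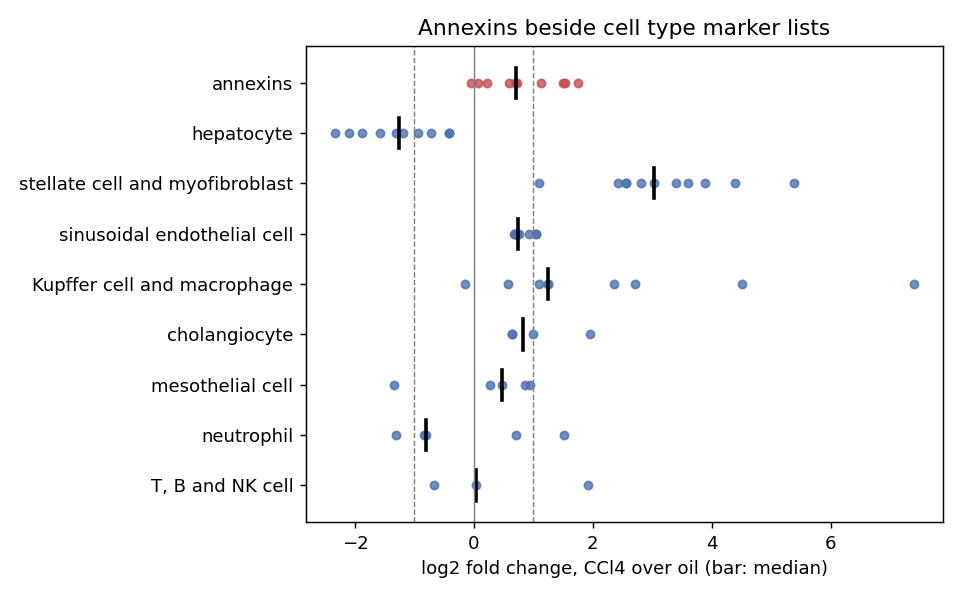
Log2 fold change of CCl4 over oil for each annexin (red) and each tested marker of 8 liver cell types (blue); black bars are medians and dashed lines mark 1 and -1. The annexins span -0.05 to 1.75, the hepatocyte markers are all below 0, and the stellate cell markers are all above 1, from Timp1 at 1.09 upward.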

How the data were processed

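RNA-seq was performed on hepatocytes from oil-injected and CCl4-injected mice, 1 library each, assigned from the deposited labels. Per the submitters' processing notes, CASAVA 1.4, TopHat2 and mm10 were used, and the counting program is not given in the sources used here. The authors deposited RPKM for lncRNAs, mRNAs and new lncRNAs in comparison tables, and whole-number read counts, RPKM and lengths of the new lncRNAs in a further table. The comparison tables list values under 1 RPKM as 0, tested on 2655 new lncRNA values, all 2655 of which were at 0. They also hold the authors' log2 changes, p-values and q-values, which were not used.

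Symbols were taken for RefSeq identifiers from a GRCm38.p6 gene table (27049 of 27457 transcripts matched). For each gene the transcript of highest mean RPKM was used, and 10829 genes with a value in both libraries were compared with 0.1 RPKM added. Named genes were all annexins and the genes of the partner and marker lists, some of which are not reported here. The members and lists were chosen with earlier results of these data known.

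Reads were recovered from RPKM at the shortest length from 200 to 8000 bases giving whole reads in both libraries. Library totals were taken from RefSeq genes under 400 bases; of those with fewer than 400 reads, 97.7% (oil) and 97.3% (CCl4) gave whole reads within 0.02. On 1397 new lncRNAs with deposited counts, recovered reads were equal in 83.9% and never above, at the library totals of that table, 62438197 and 70960849, which differ from those of the mRNA table. This recovery, and marker sums without their most abundant genes, were added after the data had been seen. The statistics were tested on simulated data. PCR copies are not independent molecules, so the intervals hold counting error and nothing else. Alternatives were 2 pseudocounts, 2 scalings, a filter, listed zeros, a larger fold and summed transcripts. Python 3.11.15, numpy 2.4.6, pandas 2.3.3, scipy 1.17.1 and matplotlib 3.10.9 were used.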

Additional observations from a re-analysis of the deposited data

How the results depend on the processing

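No paired analysis was possible because each condition had 1 library. Of the 4 annexins called higher, Anxa1, Anxa2 and Anxa3 were called under every alternative except a limit of 2 on the log2 fold change, where 0 annexins were called, and Anxa5 was also lost with scaling to the median mRNA. Levels below 1 RPKM were listed as 0 and left so, and without replicates variation between preparations was not measured.

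The annexin median of 0.71 was 0.60 with 1 RPKM added and 0.40 with scaling to the median mRNA. It was 0.87 with scaling to the summed RPKM without the 10 most abundant transcripts. Among the 7 annexins with at least 5 RPKM in both libraries it was 1.12. Of all genes, 1549 higher and 596 lower became 822 and 1100 with median scaling, 191 and 78 with a limit of 2 on the log2 fold change, 2099 and 439 without the 10 most abundant, and 563 and 453 of 5898 at 5 RPKM or more. The 8 partner genes called higher became 4 with median scaling (7.59% of all genes), 10 without the 10 most abundant (19.4%), 3 at 5 RPKM or more (9.55%) and 3 at a limit of 2 (1.76%), and the 1 called lower became 0 at that limit and without the 10 most abundant.

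With median scaling and without the 10 most abundant, in that order, list medians were 0.44 and 0.93 for partners, -1.58 and -1.09 for hepatocytes, 2.70 and 3.19 for stellate cells, 0.42 and 0.91 for endothelial cells, 0.93 and 1.41 for macrophages, 0.50 and 0.99 for cholangiocytes, 0.14 and 0.63 for mesothelial cells, -1.14 and -0.65 for neutrophils, and -0.27 and 0.20 for T, B and NK cells. The stellate median was 2.69 with 1 RPKM added, 3.88 at 5 RPKM or more and 3.22 with listed zeros at the smallest listed value. The cholangiocyte median was 1.48 at 5 RPKM or more and the mesothelial median 0.67 with listed zeros so replaced. Higher limits lower the counts by construction, and for the rest the cause was not tested.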
